A study of Mus musculus with 8 samples.

Results

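The protein genes of the mitochondrial ribosome were followed as the probe sets that the array annotation maps to exactly 1 symbol beginning with Mrpl or Mrps. This rule found 127 probe sets of 74 genes, out of 22626 probe sets that are not array controls. By their place in the ribosome, 49 of the genes belong to the large subunit and 24 to the small subunit. Mrps30 and Mrps18a code for proteins of the large subunit in spite of their names, and Mrps36 has since been assigned to the ketoglutarate dehydrogenase complex and is the 1 gene outside both subunits. Another 3 probe sets carry such a symbol together with others and were not used. A probe set is a group of short probes on the array that together read 1 transcript, and 33 of the genes have 2 or more of them.

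RNA came from the lymph nodes of inbred B10.BR mice, whose cells had been sorted in a flow cytometer, and was hybridised to Affymetrix arrays. Naive mice gave 3 arrays, mice at day 7 after immunization gave 3 arrays, and mice at day 28 after immunization gave 2 arrays. The labels name no immunogen, sorted population, age or sex, and nothing in them states that replicates were separate animals, so p-values measure only how far these arrays differ among themselves. Values are log2 ratios in which 0 stands for the middle value that a probe set takes across all 8 arrays (for dim probe sets, for a floor they share), so levels of different genes cannot be set against each other.

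Mitochondrial ribosomes are assembled inside mitochondria from ribosomal RNA coded by mitochondrial DNA and from proteins that are coded in the nucleus, made in the cytosol and imported. They translate the few messenger RNAs of mitochondrial DNA, which code for core subunits of the respiratory chain and of ATP synthase. Many of their proteins have bacterial homologues, and others are found only in mitochondria. Lymphocytes that leave rest and divide are known to enlarge their mitochondria, and T cells depend on mitochondrial translation for that step.

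Markers of other cell states moved with the groups and are given here because they bear on every comparison. The median of 11 tested probe sets for proliferation markers was -0.92 to -0.47 on the naive arrays, 1.32 to 1.94 at day 7 and -0.32 to -0.09 at day 28. The median of 11 tested B cell marker probe sets was -0.19 to -0.11 on the naive arrays, -0.09 to -0.07 at day 7 and 2.65 to 3.27 at day 28. That of 14 T cell marker probe sets was -0.20 to 0.38 on the naive arrays, -0.33 to 0.67 at day 7 and -0.46 to 0.14 at day 28. That of 5 monocyte and macrophage marker probe sets was -0.80 to -0.06 on the naive arrays, -0.31 to 0.35 at day 7 and 0.30 to 0.43 at day 28. These medians do not show single markers. Cd8a (1425335_at), a T cell marker, read 4.21 and 2.25 at day 28, against 0.003, -0.69 and -0.56 in naive mice. The median day 28 minus naive difference of the 14 T cell probe sets was -0.26. Lyz2, a monocyte and macrophage marker, read 5.43 and 2.19 at day 28, against -0.49, -0.16 and -0.61 in naive mice. At day 7 the B cell marker Cd22 read 0.30, 0.71 and -0.38, against -1.56, -3.72 and -2.54 in naive mice. The day 7 minus naive differences of the 11 B cell probe sets ran from -0.60 to 2.82, with a median of 0.10. Csf1r, a monocyte and macrophage marker, differed by 2.43 on 1419872_at and 0.32 on 1423593_a_at between day 7 and naive. The median of 18 hybridisation control probe sets split the arrays: it was -1.16 on naive replicate 1 and -1.70 to -1.03 on the day 7 arrays, against 0.64 to 1.41 on naive replicates 2 and 3 and both day 28 arrays. The part of these differences in the results below was not tested, and in mixed cells fewer cells of a type cannot be told apart from less RNA per cell.

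Upstream sequences of 5 of the genes are shown: Mrps18c for the call it gave between day 28 and day 7, Mrpl45, Mrpl18 and Mrpl21 as leading large subunit genes at day 7 with different motif content, and Mrpl47 as an example of a start region shared with an opposite-strand gene. Each is the 250 bases before the RefSeq start on GRCm38.p6, and capitals mark matches, on either strand, to motifs of factors known to act on genes of this kind: NRF1 (GCGCA, any base, GCGC), ETS factors (CCGGAAG), the E-box (CACGTG) and YY1 (AAGATGGCG). Mrps18c (chr5:100798509-100798758, plus strand) holds an E-box and an ETS match, and Mrpl45 (chr11:97315466-97315715, plus strand) holds 2 NRF1 matches. Mrpl18 (chr17:12916092-12916341, minus strand) holds an ETS match. Mrpl21 (chr19:3282792-3283041, plus strand) and Mrpl47 (chr3:32736756-32737005, minus strand) hold none of the 4.
Mrps18c: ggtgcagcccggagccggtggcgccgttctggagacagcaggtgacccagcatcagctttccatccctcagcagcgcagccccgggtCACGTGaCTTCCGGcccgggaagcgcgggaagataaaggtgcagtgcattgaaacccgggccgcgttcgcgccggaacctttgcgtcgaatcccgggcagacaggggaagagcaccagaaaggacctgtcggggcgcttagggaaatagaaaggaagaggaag
Mrpl45: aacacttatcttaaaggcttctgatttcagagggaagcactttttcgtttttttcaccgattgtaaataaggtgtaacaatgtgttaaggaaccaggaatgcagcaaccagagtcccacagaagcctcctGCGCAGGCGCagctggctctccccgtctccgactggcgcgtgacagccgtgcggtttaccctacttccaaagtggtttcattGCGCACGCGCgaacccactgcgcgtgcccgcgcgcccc
Mrpl18: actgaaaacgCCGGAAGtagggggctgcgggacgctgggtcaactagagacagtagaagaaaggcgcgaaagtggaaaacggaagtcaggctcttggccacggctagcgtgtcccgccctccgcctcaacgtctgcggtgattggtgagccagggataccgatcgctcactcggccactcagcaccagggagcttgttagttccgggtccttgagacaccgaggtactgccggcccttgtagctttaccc
Mrpl21: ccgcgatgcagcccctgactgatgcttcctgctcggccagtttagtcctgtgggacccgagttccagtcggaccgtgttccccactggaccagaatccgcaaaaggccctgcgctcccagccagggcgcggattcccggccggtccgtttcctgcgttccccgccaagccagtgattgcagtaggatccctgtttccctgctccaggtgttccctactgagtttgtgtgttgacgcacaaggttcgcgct
Mrpl47: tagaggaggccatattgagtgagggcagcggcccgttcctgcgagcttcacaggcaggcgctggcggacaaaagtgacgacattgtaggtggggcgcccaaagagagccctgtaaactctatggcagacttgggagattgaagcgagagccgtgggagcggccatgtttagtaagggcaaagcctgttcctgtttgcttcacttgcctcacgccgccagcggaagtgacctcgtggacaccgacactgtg

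Among the 71 promoters found for 65 of the genes, NRF1 matched in 9 (12.7%, against 3.74% of 32851 promoters in the table) and ETS in 16 (22.5%, against 6.91%). The E-box matched in 7 (9.86%, against 6.02%) and YY1 in 2 (2.82%, against 0.606%), and no matches of different motifs overlapped. Of the 7 E-box promoters 3 are shifted windows of Mrpl2 around the same match, so that by gene the E-box was found for 5 of 65 (7.69%, against 6.86% of the 27025 genes in the table), NRF1 for 9 (13.8%, against 4.23%), ETS for 16 (24.6%, against 7.83%) and YY1 for 2 (3.08%, against 0.71%). Any of the 4 was found for 29 genes. A match describes letters in this window and is not evidence of binding. The median day 7 minus naive difference of the gene means was 1.12 in the 9 genes with an NRF1 match and 0.63 in the 55 tested genes without one. It was 0.63 in the 16 genes with an ETS match and 0.81 in the 48 without, 1.06 in the 5 genes with an E-box and 0.76 in the 59 without, and -0.01 in the 2 genes with a YY1 match and 0.80 in the 62 without. The median day 28 minus day 7 difference was -1.26 in genes with an NRF1 match and -0.80 in those without. It was -1.16 with and -0.67 without an ETS match, and -0.63 with and -0.83 without an E-box. For YY1 it was -0.29 with a match and -0.84 without. These differences were not tested.

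Day 7 arrays carried the highest values of the mitochondrial ribosome as a set. The median log2 ratio of the 108 tested probe sets was -0.07, -0.13 and -0.09 on the naive arrays, 0.77, -0.01 and 0.45 on the day 7 arrays, and -0.13 and -0.40 on the day 28 arrays. Day 7 replicate 2 lay close to the naive arrays, and the other day 7 arrays lay above all other arrays. Over all 13042 tested probe sets the medians ran from -0.19 to 0.16. Day 7 replicate 1 had 71 of the 108 above every naive array (65.7%, against 34.5% of all tested probe sets), replicate 3 had 61 (56.5%, against 28.6%) and replicate 2 had 37 (34.3%, against 25%). Group means ran from day 7 at the top through naive to day 28 at the bottom in 51 of the 108 (47.2%, against 26.5% of all), and from day 7 through day 28 to naive in 27 (25%, against 19.3%).

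**Figure D1:**
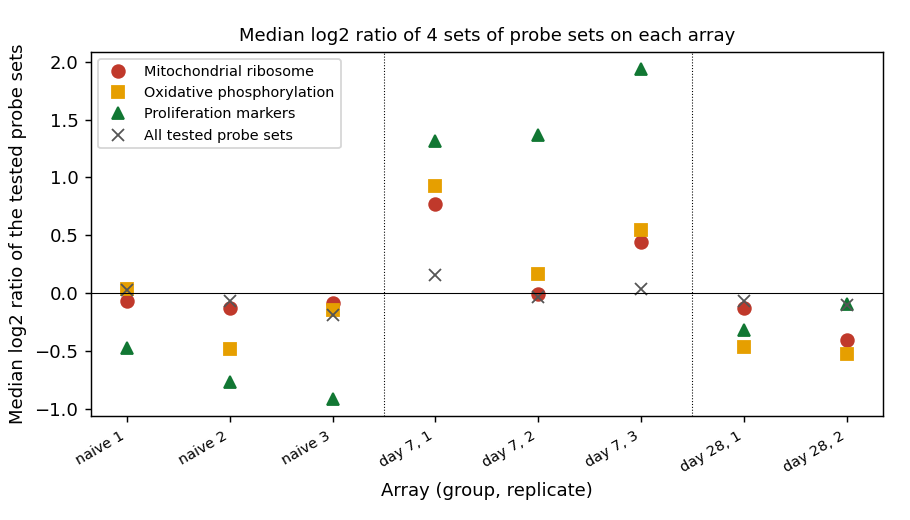
Median log2 ratio (vertical axis) on each of the 8 arrays (horizontal axis) for the tested probe sets of the mitochondrial ribosome (circles), nuclear-coded oxidative phosphorylation (squares), proliferation markers (triangles) and all probe sets (crosses). The ribosome median stands at 0.77 on day 7 replicate 1 and 0.45 on replicate 3, but at -0.01 on replicate 2.

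**Figure D2:**
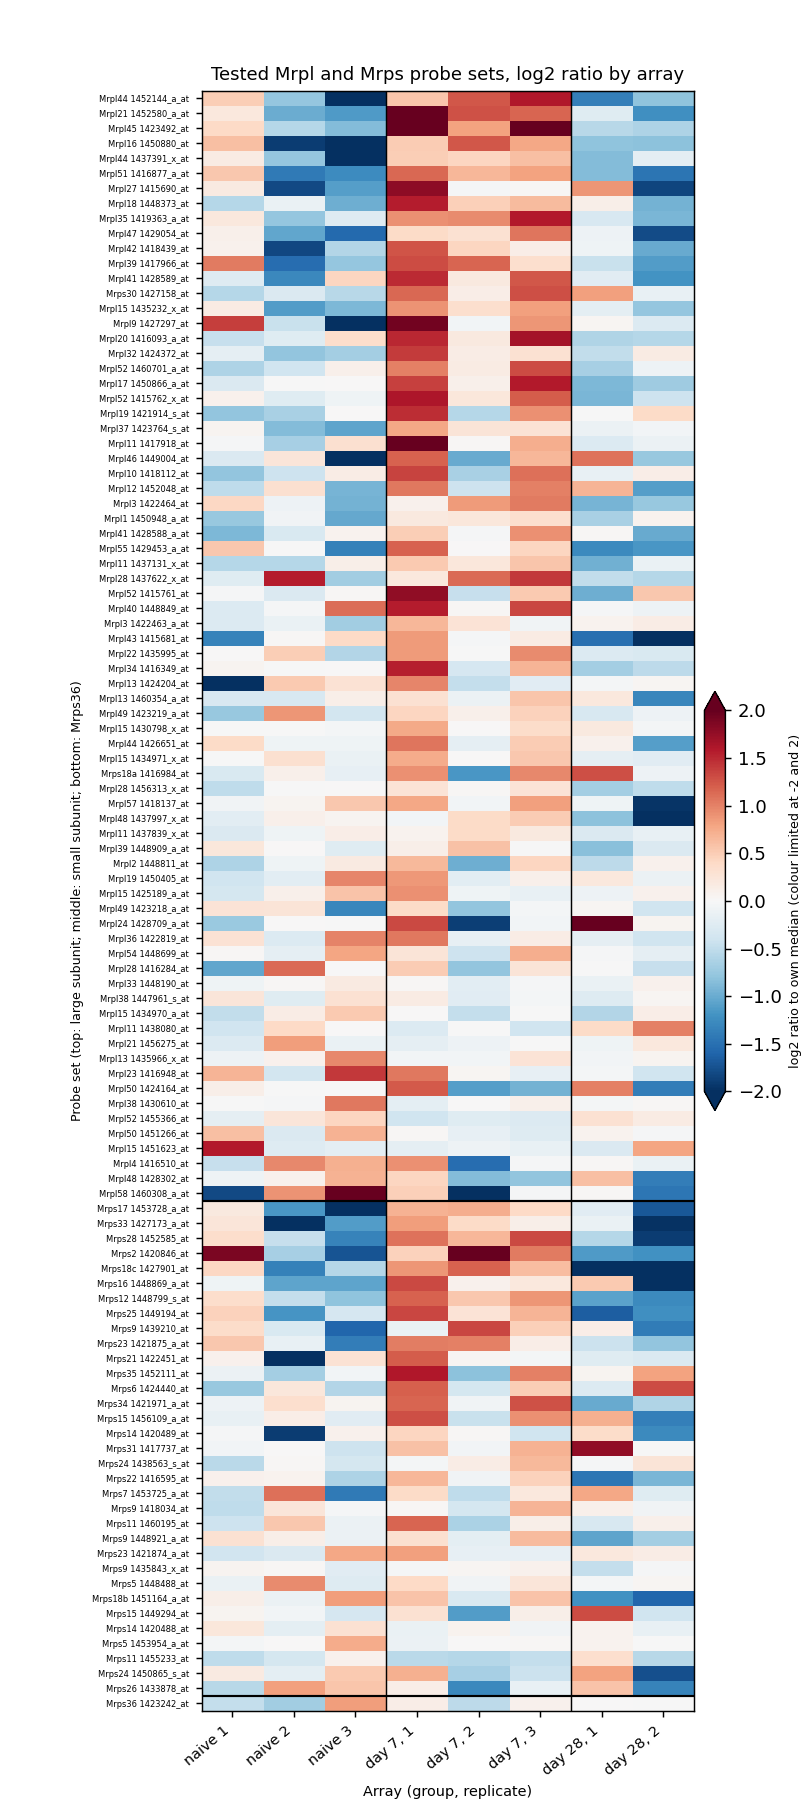
Log2 ratio of each of the 108 tested probe sets (rows, ordered by the day 7 minus naive difference within the large subunit, the small subunit and Mrps36) on the 8 arrays (columns), with colour limited at -2 and 2. Red is above and blue below a log2 ratio of 0. Day 7 replicate 1 has 95 rows above 0, and day 28 replicate 2 has 25.

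At day 7 the members lay mostly above naive, but no single probe set passed the test. The median day 7 minus naive difference was 0.62 over the 108 tested members, against 0.11 over all tested probe sets, and 85 of the 108 differences were above 0, against 56% of all. With limma, 0 of 108 passed an adjusted p of 0.05 (background 1.17% of all tested probe sets, or 1.06% in the upward direction). At an unadjusted p under 0.05, 25 were higher (23.1%, against 12.4% of all) and 0 were lower (against 3.08%). The day 7 arrays lay wholly above the naive arrays for 26 members (24.1%, against 13.4%) and wholly below for 1 (against 8.61%). Over all 127 probe sets, filtered or not, the median was 0.37, against 0.02 over all 22626. Without naive replicate 1, 15 members passed (13.9%), as did 13.2% of all tested probe sets. Without day 7 replicate 1 the member median was 0.38, and the count higher at an unadjusted p under 0.05 was 11 without that array (10.2%, against 8.95% of all tested probe sets in the same fit) and 12 without day 7 replicate 3 (11.1%, against 8.27%). It was 13 without naive replicate 2 (12%, against 8.36%) or naive replicate 3 (12%, against 7.54%), and 7 with a term for the hybridisation control split (6.48%, against 3.86%).

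Against all naive arrays together, the large and small subunits had day 7 medians close to each other. The median day 7 minus naive difference was 0.63 over 74 large subunit probe sets and 0.57 over 33 small subunit probe sets, with 20 (27%) and 5 (15.2%) higher at an unadjusted p under 0.05, against 12.4% of all tested probe sets. The small subunit share is near that of all. Proteins with bacterial homologues had a median of 0.62 (66 probe sets) and proteins found only in mitochondria 0.63 (41 probe sets). By gene, 62 of 73 had a mean difference above 0. The share over all genes is not given here, and over all tested probe sets 56% of differences were above 0. Against the 1 naive array with like hybridisation control values, naive replicate 1, the median of the tested members was 0.50, where that of all tested probe sets was -0.004. Against that array it was 0.55 over the large subunit and 0.32 over the small.

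Among large subunit genes, Mrpl21, which has a bacterial homologue, had the smallest p at day 7. Its probe set 1452580_a_at read 2.03, 1.28 and 1.17 on the day 7 arrays, against 0.21, -0.99 and -1.13 on the naive arrays. All day 7 arrays were above all naive arrays, by 2.13 ± 0.48 on the log2 scale (SE; 4.38-fold; limma, adjusted p = 0.0973). Mrpl45 codes for a protein, not found in bacteria, that sits by the exit of the peptide tunnel and helps hold the ribosome to the inner membrane. It read 2.20, 0.81 and 2.12 on the day 7 arrays, against 0.40, -0.57 and -0.87 on the naive arrays. The groups did not overlap, and the difference was 2.06 ± 0.49 (4.16-fold; adjusted p = 0.111).

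Mrpl35, which has a bacterial homologue, read 0.91, 0.95 and 1.58 at day 7, against 0.22, -0.77 and -0.26 in naive mice, on probe set 1419363_a_at. Its difference was 1.42 ± 0.37 (2.67-fold; adjusted p = 0.14). Mrpl18, a protein of the central protuberance, read 1.57, 0.48 and 0.63 at day 7, against -0.57, -0.13 and -0.98 in naive mice, a difference of 1.46 ± 0.44 (adjusted p = 0.183). Neither gene's groups overlapped. Mrpl16, whose bacterial homologue lies near the peptidyl transferase centre, read 0.51, 1.24 and 0.77 at day 7, against 0.60, -1.89 and -2.18 in naive mice. Here naive replicate 1 lay within the day 7 range, and the difference of 2.0 ± 0.69 had an adjusted p of 0.231.

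Mrps30, a large subunit protein found only in mitochondria, read 1.15, 0.14 and 1.29 at day 7, against -0.57, -0.29 and -0.56 in naive mice. The groups did not overlap, and the difference was 1.33 ± 0.41 (adjusted p = 0.189). The other large subunit probe sets among the 12 with the smallest p were Mrpl15 (1435232_x_at, 1.30), Mrpl51 (1416877_a_at, 1.58), Mrpl37 (1.06) and Mrpl52 (1460701_a_at, 1.13), given as log2 differences, and all had groups that did not overlap. Against naive replicate 1 alone these were 0.52, 0.33, 0.39 and 1.44. Against that array the differences were also 1.28 for Mrpl21, 1.31 for Mrpl45, 0.93 for Mrpl35, 1.47 for Mrpl18, 0.25 for Mrpl16 and 1.42 for Mrps30.

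The small subunit had 2 probe sets among those 12. Mrps12, whose bacterial homologue lies at the decoding centre, read 1.18, 0.54 and 0.88 at day 7, against 0.36, -0.48 and -0.80 in naive mice. The groups did not overlap, with a difference of 1.17 ± 0.37 (2.26-fold; adjusted p = 0.195). Mrps18c, a homologue of a bacterial protein of the small subunit's platform, read 0.89, 1.18 and 0.62 at day 7, against 0.41, -1.35 and -0.58 in naive mice. Its difference was 1.40 ± 0.45 (2.64-fold; adjusted p = 0.207), again with no overlap. Against naive replicate 1 alone it was 0.48, and that of Mrps12 was 0.51.

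Probe sets of the same gene often differed. Of 22 genes with 2 or more tested probe sets, 8 had all day 7 differences above 0, 2 had all below (Mrpl38 and Mrpl50) and 12 had both signs. For Mrpl21 the second probe set, 1456275_at, read -0.18, -0.11 and -0.01 at day 7, against -0.28, 0.84 and -0.13 in naive mice, a difference of -0.24 ± 0.35. The high value of Mrpl21 therefore belongs to 1 of its 2 probe sets. Mrpl15, with 7 probe sets the most of any gene, had tested differences from -0.53 (1451623_at) to 1.30 (1435232_x_at), with -0.22 on 1434970_a_at. Mrpl52 had 1.13 on 1460701_a_at, 1.10 on 1415762_x_at, 0.71 on 1415761_at and -0.47 on 1455366_at, and this last probe set was the 1 tested member whose day 7 arrays all lay below naive. At day 28 against naive Mrps9 had both signs, with -0.96 on 1448921_a_at and 0.11 on 1418034_at. Probe sets named _x_at, which may hold probes shared with other transcripts, had a median day 7 difference of 0.38 (12 members), against 0.59 for those named _at (60 members).

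At day 28 the members lay near naive, slightly below it. The median day 28 minus naive difference was -0.15 over the 108 tested members, against -0.05 over all tested probe sets, and 38 of 108 were above 0, against 45.5% of all. With limma, 0 of 108 passed an adjusted p of 0.05 (background 0.322% of all tested probe sets). At an unadjusted p under 0.05, 6 were lower (5.56%, against 3.21% of all) and 0 higher (against 3.13%). Both day 28 arrays lay below all naive arrays for 16 members (14.8%, against 9.88%) and above them for 4 (3.7%, against 7.76%). Against naive replicates 2 and 3, which share high hybridisation control values with the day 28 arrays, the median was -0.16. It was -0.29 without day 28 replicate 1 and -0.04 without day 28 replicate 2.

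The 2 smallest p-values at day 28 belonged to homologues of the same bacterial small subunit protein. Mrps18b read -1.20 and -1.59 on the day 28 arrays, against 0.11, -0.12 and 0.84 on the naive arrays, a difference of -1.67 ± 0.43 (0.314-fold; limma, adjusted p = 0.352). Mrps18c read -2.33 and -2.15 at day 28, against 0.41, -1.35 and -0.58 in naive mice, a difference of -1.73 ± 0.51 (0.301-fold; adjusted p = 0.479). Both had day 28 arrays below every naive array.

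Of large subunit proteins found only in mitochondria, Mrpl43 read -1.51 and -2.62 at day 28, against -1.34, 0.03 and 0.40 in naive mice, a difference of -1.76 ± 0.60 (adjusted p = 0.612). Mrpl48 (1437997_x_at) read -0.81 and -1.99 at day 28, against -0.21, 0.10 and 0.06 in naive mice, a difference of -1.39 ± 0.41 (adjusted p = 0.491). Neither pair of groups overlapped. Small subunit probe sets among the 12 with the smallest p also had means below naive, with log2 differences of -0.96 for Mrps9 (1448921_a_at), -1.02 for Mrps22, -0.87 for Mrps12, -1.08 for Mrps25 and -0.90 for Mrps34. Mrpl57 of the large subunit had -1.19. The others of the 12 lay above naive. Mrps31 read 1.77 and -0.01 at day 28, against -0.06, 0.01 and -0.42 in naive mice, and Mrpl11 (1438080_at) differed by 0.69. The Mrps31 value comes from 1 of the 2 day 28 arrays.

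At day 28 the members lay mostly below day 7, and 1 of them passed the test. This comparison shares the day 7 arrays with that of day 7 against naive. The median day 28 minus day 7 difference was -0.65 over the 108 tested members, against -0.16 over all tested probe sets, and -0.47 against -0.05 with untested probe sets included. With limma, Mrps18c alone passed an adjusted p of 0.05. That is 0.926% of the tested members, near the background of 1.3% of all tested probe sets, or 0.882% in the downward direction. At an unadjusted p under 0.05, 30 were lower (27.8%, against 13.1% of all) and 1 was higher, Mrpl11 1438080_at (against 3.47%). Both day 28 arrays lay below all day 7 arrays for 49 members (45.4%, against 29.7%) and above them for 2 (against 15.2%). Without naive replicate 1, 10 members passed (9.26%, against 6.21% of all). The count lower at an unadjusted p was 20 without day 7 replicate 1 (18.5%, against 10.1% of all in the same fit) and 19 without day 28 replicate 2 (17.6%, against 8.69%).

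Mrps18c read -2.33 and -2.15 at day 28, against 0.89, 1.18 and 0.62 at day 7, on probe set 1427901_at, the gene's only one. The groups stood more than 2 log2 units apart, with naive replicates between them. Mrps18c fell by 3.13 on the log2 scale (SE 0.51, 95% interval -4.31 to -1.96; 0.114-fold; limma, adjusted p = 0.0373). The call was lost without any 1 of naive replicate 3, the 3 day 7 arrays and the 2 day 28 arrays, with adjusted p from 0.0601 to 0.19. Because every day 7 array has low and every day 28 array high hybridisation control values, a term for that split can be told from the days only through the naive arrays; with it the Mrps18c difference was -1.76 (adjusted p = 0.362). With the same term 11 members were lower at an unadjusted p under 0.05 (10.2%, against 3.83% of all), and the median was -0.59 over the members and 0.03 over all tested probe sets.

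The members next in order of p missed the threshold. Mrps12 read -1.07 and -1.28 at day 28, against 1.18, 0.54 and 0.88 at day 7, a difference of -2.04 ± 0.41 (adjusted p = 0.0635). Mrpl35 had -1.77 ± 0.41 (adjusted p = 0.0972), Mrpl45 had -2.29 ± 0.54 (adjusted p = 0.0996) and Mrpl21 had -2.22 ± 0.53 (adjusted p = 0.101). For all 4 the day 28 arrays lay below the day 7 arrays.

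By subunit, the median day 28 minus day 7 difference was -0.77 over the large subunit and -0.47 over the small. It was -0.96 over proteins found only in mitochondria and -0.62 over those with bacterial homologues, and these pairs of sets were not tested against each other. Genes with probe sets of both signs, at least 1 of them at an unadjusted p under 0.05, were Mrpl11, Mrpl15, Mrpl21, Mrpl48 and Mrpl52 here. Mrpl11, a protein of the stalk base, had 0.92 ± 0.36 on 1438080_at and -0.98 on 1437131_x_at, and Mrpl48 had -1.68 on 1437997_x_at and 0.02 on 1428302_at. By gene, 62 of 73 had a mean difference below 0. The share over all genes is not given here, and over all tested probe sets 41.9% of differences were above 0.

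**Figure D3:**
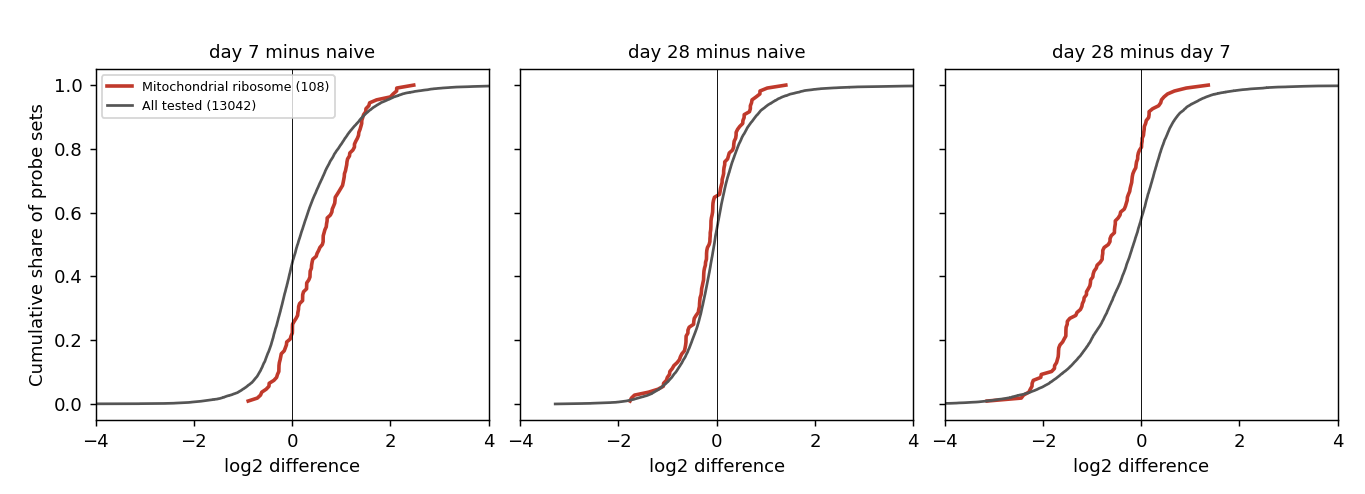
Cumulative share of probe sets (vertical axis) by log2 difference (horizontal axis) for day 7 minus naive, day 28 minus naive and day 28 minus day 7, with the 108 tested members as the red line and all 13042 tested probe sets as the grey line. The member medians are 0.62, -0.15 and -0.65, against 0.11, -0.05 and -0.16 over all.

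**Figure D4:**
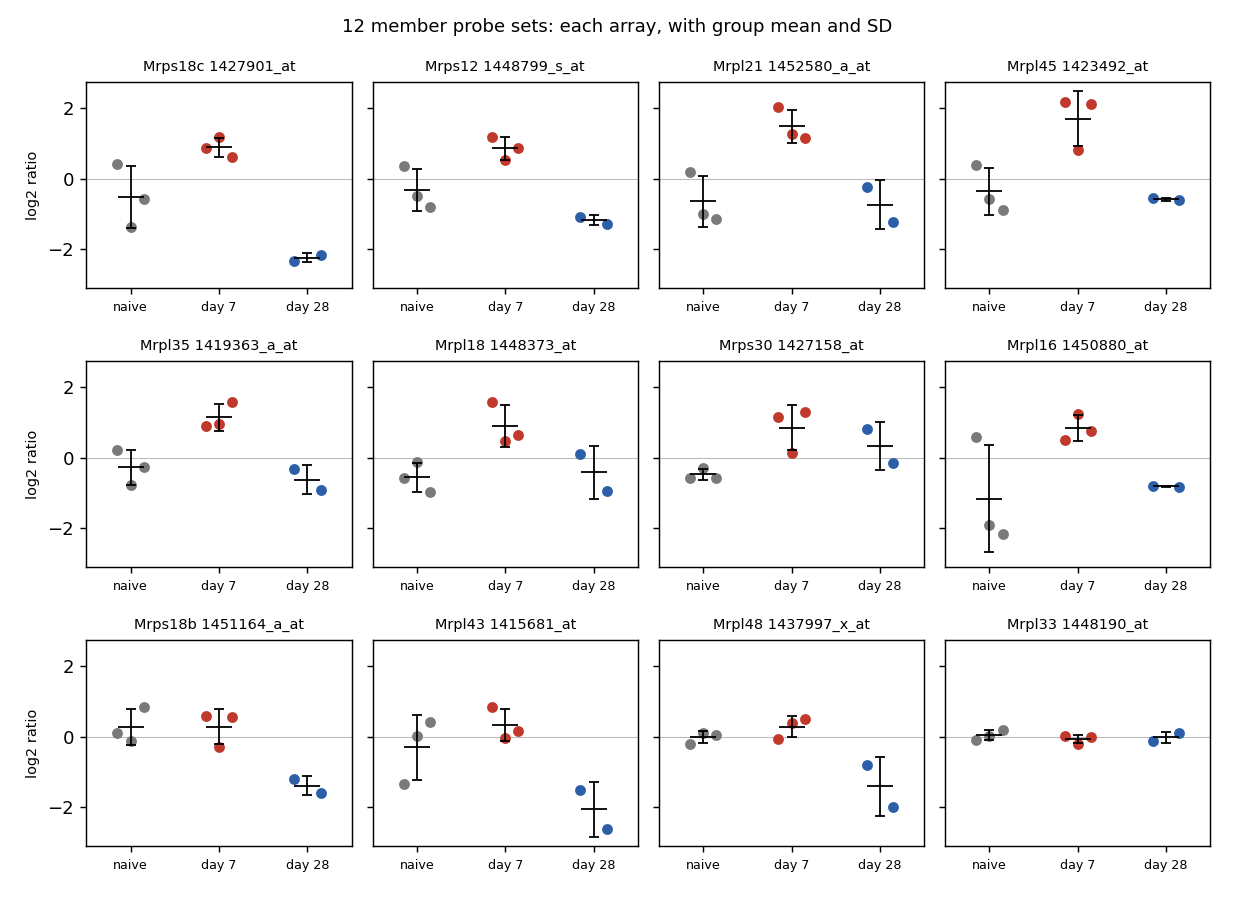
Log2 ratio of 12 member probe sets on each array (points), by group, with the group mean and SD (bars; 3 naive, 3 day 7 and 2 day 28 arrays). Mrps18c at day 28 (-2.33 and -2.15) lies below every other array, while Mrpl33 stays between -0.21 and 0.19 on all 8 arrays.

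The 3 homologues of the same bacterial protein, of which Mrps18a and Mrps18b are counted here with the proteins found only in mitochondria, had different values. Mrps18a, built into the large subunit, read -0.31, 0.10 and -0.17 in naive mice, 0.92, -1.17 and 0.97 at day 7 and 1.30 and -0.11 at day 28. Its groups overlapped in all comparisons, with a day 28 minus day 7 difference of 0.36 ± 0.71 (adjusted p = 0.828). Mrps18b had 0.00 ± 0.38 between day 7 and naive and -1.68 ± 0.43 between day 28 and day 7 (adjusted p = 0.117). Of the 3, Mrps18c was the one whose day 7 arrays all lay above naive and whose day 28 arrays all lay below it. The genes were not tested against each other.

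Spread over the 8 arrays was widest for Mrpl44 (1452144_a_at, SD 1.73), Mrps2 (1420846_at, 1.52), Mrps17 (1.5), Mrpl58 (1.42) and Mrps18c (1.39). Mrpl44, a protein with an RNase III-like fold, read 0.50, -0.77 and -3.76 in naive mice, 0.55, 1.24 and 1.61 at day 7 and -1.37 and -0.81 at day 28. Naive replicate 3 was far below the other arrays for Mrpl44 and for Mrps17, at -3.59. Mrpl58, a hydrolase that frees stalled ribosomes, read -1.81, 0.90 and 2.01 in naive mice, 0.47, -2.04 and -0.02 at day 7 and 0.02 and -1.45 at day 28, with replicates of the same group far apart. The smallest SDs belonged to probe sets that did not pass the filter: Mrps2 1420845_at (0.0383), Mrpl15 1460490_at (0.039), Mrpl51 1416879_at (0.0667), Mrpl42 1437922_at (0.074) and Mrpl1 1460508_at (0.0811).

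The filter, which asks that 2 or more arrays reach a ratio of 1, left out 19 of the 127 probe sets. They belong to Mrpl1, Mrpl51 and Mrps25 (2 each) and to Mrpl3, Mrpl9, Mrpl14, Mrpl15, Mrpl17, Mrpl19, Mrpl33, Mrpl34, Mrpl35, Mrpl41, Mrpl42, Mrpl57 and Mrps2 (1 each). Mrpl14 is the only gene of the 74 with no tested probe set. Of the tested members, 51 reached the ratio in naive and day 7 arrays and 44 in all 3 groups. Another 8 did so in day 7 and day 28 arrays and 5 in naive and day 28 arrays. No tested member passed through 1 group alone, but the scaling nearly fixed that outcome. A median ratio of 1 over the 8 arrays was found for 105 members, and no group has more than 3 arrays.

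Opposite-strand neighbours whose windows overlap were found for 22 of the genes, and 12 had a tested neighbour. Mrpl47, whose sequence is shown above, read 0.38, 0.30 and 1.08 at day 7, against 0.10, -1.04 and -1.55 in naive mice, a difference of 1.42 ± 0.58 (adjusted p = 0.302). Its neighbour Ndufb5, a complex I subunit, differed by 1.03 and 1.74 on 2 probe sets. Mrpl32 differed by 1.17 ± 0.41, and its neighbour Psma2, a proteasome subunit, by 0.93. Mrpl21 had 2.13 and -0.24 on its 2 probe sets, and its neighbour Ighmbp2 had -1.14 and -0.48. Mrpl46 and Mrps11 share a window and are both members, with 0.99 for Mrpl46 and 0.21 and -0.27 for Mrps11. All are day 7 minus naive differences on the log2 scale, and none passed the test.

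Other genes of mitochondrial gene expression were compared from lists. Nuclear-coded oxidative phosphorylation subunits, partners of the mitochondrial ribosome's products, had a median day 7 minus naive difference of 0.86 over 133 tested probe sets, with 0 called and 55 higher at an unadjusted p under 0.05 (41.4%, against 12.4% of all tested probe sets). Their median day 28 minus day 7 difference was -1.22, with 7 called lower (5.26%, against 0.882% of all), among them Ndufb7 (-2.61 ± 0.35; limma, adjusted p = 0.019) and Atp5k (1450640_x_at, -2.58 ± 0.39; adjusted p = 0.0283). Membrane insertion and protein import genes had medians of 0.64 (day 7 minus naive, 0 of 42 called, with 9 or 21.4% higher at an unadjusted p under 0.05) and -0.68 (day 28 minus day 7, 1 of 42, or 2.38%, called lower). That 1 was Timm17b, a channel subunit of the inner membrane translocase, on 1438656_x_at (-2.96 ± 0.34, limma, adjusted p = 0.011). Against naive replicate 1 alone, the day 7 median of the import list was only 0.05, and that of oxidative phosphorylation was 0.73. Over all tested probe sets it was -0.004.

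Lists closer to the ribosome itself were smaller and had no call in any comparison. Translation factors had a day 7 minus naive median of 0.50 (7 probe sets), with the elongation factor Gfm1 at 1.14. Gfm1 read 0.66, -0.22 and 1.13 at day 7, against 0.19, 0.34 and -2.38 in naive mice. Transcription and RNA handling genes had a median of 0.39 (18), with Slirp, an RNA-binding partner of Lrpprc, at 2.86 ± 0.94 (limma, adjusted p = 0.211). Slirp read 1.13, 1.46 and 1.16 at day 7, against 0.73, -3.32 and -2.25 in naive mice. Assembly and rRNA modification genes had a day 7 minus naive median of -0.01 (28). Dhx30 had -0.82, -0.60, -0.59 and 0.02 on its 4 tested probe sets, and Trub2 had -0.80, -0.51 and 0.21 on its 3. C1qbp had 1.29 on 1455821_x_at, where naive replicate 1 (1.17) lay above day 7 replicate 1 (0.30). On 1448274_at the C1qbp means were -0.15 at day 7 and -0.33 in naive mice. Aminoacyl-tRNA synthetases had -0.09 (15), with Rars2 at 0.96, Fars2 at 0.98 and -0.77 on 2 probe sets and Tars2 at -1.46 and -0.74 on 2. The 4 subunit genes without the prefix had -0.10, from -0.62 for Gadd45gip1 to 0.72 for Chchd1. Regulators of mitochondrial biogenesis had -0.06 (21), where Nrf1, whose product binds the NRF1 motif, differed by -1.43 ± 0.56 (limma, adjusted p = 0.289). Yy1 differed by 1.78 ± 0.84 on 1422569_at (adjusted p = 0.358), where naive replicate 1, at 1.02, lay above every day 7 array. On 1435824_at the Yy1 means were 0.17 at day 7 and -0.12 in naive mice. Myc differed by 1.55 ± 0.54 between day 28 and day 7 (adjusted p = 0.21).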

How the data were processed

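Values were those the submitters deposited for 8 Affymetrix arrays (22690 probe sets, of which 64 are controls). GCRMA is the tool named, without a version, in the submitters' processing notes. The deposited value is a linear ratio; its scaling was read from the values, since 47.9% of probe sets have a median of 1 over the 8 arrays, and no level or depth can be recovered from it. The number of arrays limits the precision. Log2 ratios were fitted with limma 3.58.1 in R 4.3.3, with 1 mean per group over all 8 arrays and empirical Bayes moderation. Two-sided p-values were adjusted by Benjamini-Hochberg across the 13042 probe sets (57.6%) that reach a ratio of 1 on 2 or more arrays, and the threshold was 0.05. The script was tested on simulated data with the spread of these arrays. For day 7 against naive it recovered 0% of true log2 differences of 1, 30% of 2 and 78% of 4, with 10 false calls. In the other comparisons it also recovered 0% of differences of 1. A member that missed the threshold may therefore still differ by that much. Gene names come from the array annotation. Upstream sequences come from the RefSeq table on GRCm38.p6; genes without an entry have none here. The members and 12 gene lists were chosen with earlier results of these data known. Per comparison the text names members past the threshold, otherwise the 12 with the smallest p, then genes whose probe sets differ in sign, the 5 largest and 5 smallest SDs, members not tested, and up to 4 genes of each other list. The neighbours, Mrps18a and the stalk genes were chosen after their values were seen. Alternatives covered the filter, between-array normalization, groups fitted, array weights, variance model, replicate block, hybridisation controls, threshold, probe sets per gene and each array left out.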

Additional observations from a re-analysis of the deposited data

How the results depend on the processing

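With 8 arrays, counts of calls depended on the setting and medians less so. Between day 7 and naive, where 0 members passed, 14 passed with array weights estimated gene by gene (13%, against 11.1% of all probe sets) and 1 at an adjusted p of 0.1, and leaving out each array gave 0 to 15; 15 was without naive replicate 1. The weights gave naive replicate 1 0.322 and day 7 replicate 3 6.59. Between day 28 and naive the count was 0 in every setting. Between day 28 and day 7, where 1 passed, 0 passed with no filter or the stricter filter (median ratio of 1). The count was also 0 with trended and robust variance, a replicate block or a term for hybridisation controls. With the 2 groups alone 4 passed (3.7%, against 4.53% of all probe sets), and with array weights 21 (19.4%, against 10.6%). At an adjusted p of 0.1, where the share of all probe sets is not given here for either comparison, 4 passed. Leaving out each array gave 0 to 10 there, with 10 without naive replicate 1 (9.26%, against 6.21%). The cause was not tested.

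Mrps18c had adjusted p of 0.0695 with no filter, 0.0518 with the stricter filter and 0.09 with trended and robust variance. Whether replicate numbers pair the arrays could not be decided. Same-numbered naive and day 7 arrays had correlations of deviations from the group mean of -0.23, -0.36 and 0.10. Those with day 28 arrays were 0.12 and 0.12 (naive) and 0.17 and 0.09 (day 7). With 2 or 3 arrays in a group the deviations cancel out, so these correlations are tied to each other. With the replicate block Mrps18c had -3.22 (limma, adjusted p = 0.118).

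The members' median difference kept its sign in every setting. Leaving out each array gave 0.38 to 0.78 between day 7 and naive, -0.29 to -0.04 between day 28 and naive and -0.91 to -0.48 between day 28 and day 7. Median centring moved the day 7 minus naive median of all probe sets to -0.02, against 0.11, and that of the members to 0.49; quantile normalization gave 0.44 for the members. Of the other genes, Fars2 (1439406_x_at) turned to 0.11 at day 7 as a mean of its probe sets, and with the term for hybridisation controls Qrsl1, Slirp and Grsf1 turned to 0.30, 0.14 and 0.36 between day 28 and day 7.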

Other observations

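Mrpl10 and Mrpl12, which form the stalk that recruits translation factors to the large subunit, had values that divided the day 7 arrays. Mrpl10 read 1.35, -0.66 and 1.11 at day 7, against -0.79, -0.41 and 0.15 in naive mice, and Mrpl12 read 1.05, -0.42 and 1.0 at day 7, against -0.50, 0.32 and -0.94 in naive mice. For both genes replicate 2 lay within the naive range and the other day 7 arrays lay above it. The differences were 0.95 ± 0.55 (limma, adjusted p = 0.433) for Mrpl10 and 0.92 ± 0.62 (adjusted p = 0.491) for Mrpl12. Mrps36, which is not a ribosomal protein, read 0.13, -0.53 and 0.09 at day 7, against -0.47, -0.70 and 0.84 in naive mice, a difference of 0.01 ± 0.44 (adjusted p = 0.995).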
